A study of Mus musculus with 9 samples.

Results

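The genes described here are 40 genes of mitosis and the mitotic spindle, each of which has at least 1 probe on the arrays under its own symbol. All non-control probes carrying one of the 40 symbols were taken, which gave 77 probes of 56605 on the array and 40 of the 23965 genes with a usable value. They were measured in primary hepatic stellate cells, which wrap the liver sinusoids and store vitamin A, on 9 single-colour Agilent arrays. The first group of 3 arrays held cells transfected overnight with siRNA targeting Cav1, which encodes the caveolar coat protein caveolin-1, and the second held cells transfected with a negative control siRNA, both at 5 nM after 7 days of culture on plastic with serum. The third group of 3 arrays held cells labelled quiescent, with the treatment given as none and no time of harvest. All cells came from C57BL/6 mice aged 10 weeks, with no allele named for any group, and the 2 transfected groups share the culture, the transfection reagent and the label of activated cells. Whether replicates within a group stem from different mice or different dishes is not labelled, so the p-values cover only the spread among these samples, and that spread may be technical.

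Cells enter mitosis when CDK1, bound to cyclin A or cyclin B, is activated by CDC25 phosphatases, and leave it when the anaphase-promoting complex marks cyclin B and securin for destruction. In between, kinesin motors and microtubule-binding proteins build the spindle, kinetochores attach chromosomes to it, the spindle checkpoint delays anaphase until all are attached, and the central spindle directs the cleavage furrow. Most of these genes are transcribed in late S, G2 and M phase and are repressed in resting cells. Stellate cells in healthy liver rarely divide, and they begin to proliferate when they become myofibroblast-like in injury or in culture on plastic.

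Levels of single genes are log2 signals relative to the 75th percentile of the array and are compared between arrays for 1 probe, not between probes. Levels of marker lists are sums of linear signals over that percentile, in which a few bright probes can carry most of the sum. Of the 77 probes, 71 passed the filter, which asks that a probe be well above background throughout 1 or more of the groups, 5 did not pass, and 1, a brighter probe of Cdc20, was left out because its spot was an outlier on quiescent array 2. The 40 genes all kept a probe that is designed to a curated RefSeq mRNA, and 37 of them were above background on all 3 quiescent arrays. The Cav1-siRNA arrays lay on slide 2 with 2 of the control-siRNA arrays, and the first control-siRNA array lay on slide 1 beside those of quiescent cells. Log2 signals of the targeted gene Cav1 were -2.88, -2.89 and -3.07 with Cav1 siRNA, -1.34, -1.12 and -1.09 with control siRNA and -4.87, -5.65 and -5.84 in quiescent cells. It was therefore at 29.4% of the control-siRNA level on the Cav1-siRNA arrays, with no overlap between them, although this difference missed the threshold (log2 change -1.76, adjusted p = 0.14, limma).

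Against quiescent cells, all 40 genes were called higher in control-siRNA cells, where 42.1% of all genes tested were called higher (adjusted p under 0.05, limma with Benjamini-Hochberg adjustment over 23965 genes). Their median rise was 3.84 on the log2 scale, or 14.3-fold, beside a median of 0.32 over all genes. The smallest rise was that of Spc25 at 1.84 and the largest that of Kif20a at 5.98, and adjusted p ran from 5.2e-08 to 0.00025. With normexp background correction and the same percentile the median rise was 3.04 and the smallest 1.16 (Kif2c), with all 40 still called higher. A rise of at least 3 on the log2 scale was seen in 31 of the 40 genes and in 6.09% of all genes. For each of the 40 genes, all 3 control-siRNA arrays were above all 3 quiescent arrays, as for 42.8% of all genes, and 25 of the 40 stood among the 1000 largest rises of the 23965 genes. In bulk RNA, fewer cells of a type that carry a transcript and less of it in each cell cannot be told apart.

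The make-up of the samples also differed between these groups, and its part in the rises was not tested. The summed linear level of 12 hepatocyte markers was 15.2 to 19.6 times the array's 75th percentile on control-siRNA arrays, against 1543 to 1814 times on quiescent arrays, and all 12 were called lower. Summed levels of the 10 macrophage markers were 32.7 to 35.8 on control-siRNA arrays and 301.1 to 481.3 on quiescent arrays. Those of the 10 endothelial markers were 3.08 to 3.46 and 334.5 to 569.5, and all 10 of each list were called lower in control-siRNA cells. The 10 lymphocyte and neutrophil markers summed to 0.418 to 0.511 and 25.9 to 58.9, and the 4 erythroid markers to 0.0643 to 0.0664 and 226.3 to 347.5, again all called lower. Defining markers that were not well above background on any control-siRNA or Cav1-siRNA array included Ttr and Hnf4a of hepatocytes, Clec4f, Vsig4 and Timd4 of resident macrophages, and Cdh5, Tek and Emcn of endothelium. Others were still detected: 5 of 12 hepatocyte, 7 of 10 macrophage and 6 of 10 endothelial markers were above background on all 3 control-siRNA arrays, among them Ass1 (4.14 on the log2 scale, against 7.03 in quiescent cells), Lyz2 (4.64, against 6.59) and Csf1r (2.38, against 6.03). Of 7 stellate markers, the retinoid-esterifying enzyme gene Lrat was above background on all quiescent arrays and on no cultured array, whereas Acta2, Col1a1, Pdgfrb, Timp1 and Hand2 were called higher in control-siRNA cells. Reln was called neither way (-2.45 in control-siRNA and -2.46 in quiescent cells). The 7 stellate markers summed to 392.2 to 402.2 on control-siRNA arrays and 3.42 to 8.95 on quiescent arrays. The 10 mesothelial and portal fibroblast markers summed to 148.8 to 169.2 on control-siRNA arrays and 35.0 to 60.8 on quiescent arrays. Of them, 6 were called higher and 4 lower. On quiescent arrays the brightest probes of this list were those of Krt18 and Krt8 (mean log2 signals 4.64 and 4.51). With control siRNA they read -5.45 and -4.76. Fbln2 was brightest on control-siRNA arrays (7.00, against -1.19 in quiescent cells). Wt1 (4.17, against -2.91), Upk1b, Upk3b, Msln and Gpm6a also had higher means with control siRNA, whereas Eln and Entpd2 had lower means. Of the 4 cholangiocyte markers, Spp1 (3.37) and Sox9 (0.71) were called higher, Krt19 lower (-3.15) and Krt7 neither way. They summed to 27.4 to 33.2 on control-siRNA arrays and 2.06 to 6.03 on quiescent arrays. Spp1 carried most of both sums, with mean log2 signals of 4.90 with control siRNA and 1.54 in quiescent cells. The next brightest were Sox9 with control siRNA (-2.96) and Krt19 in quiescent cells (-2.23). The members themselves summed to 230 to 253.6 on control-siRNA arrays and 19.1 to 31.6 on quiescent arrays.

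**Figure D1:**
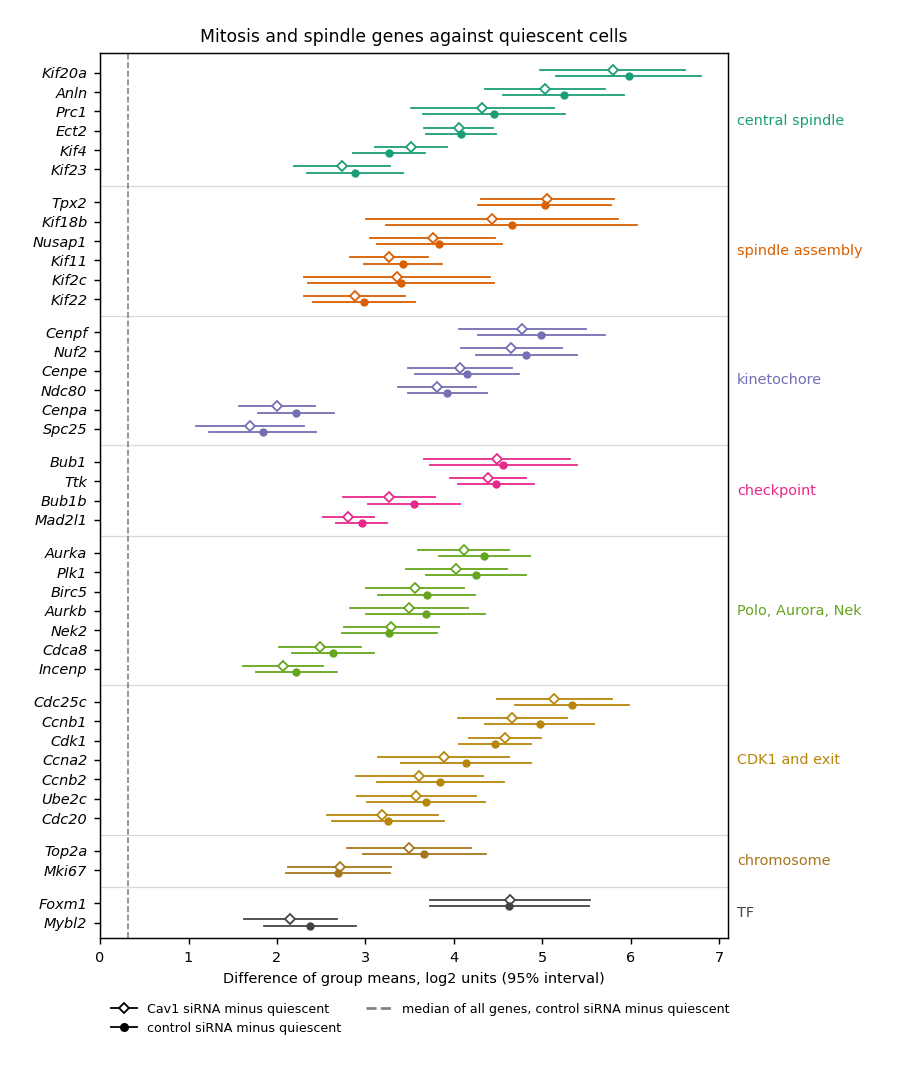
Difference from quiescent cells for the 40 genes, by role, on the horizontal axis in log2 units; open diamonds are Cav1 siRNA minus quiescent, filled circles are control siRNA minus quiescent, and lines are 95% intervals of the limma fit over 9 arrays. Every interval lies above the dashed line at 0.32, the median over all genes for control siRNA minus quiescent, and the widest belongs to Kif18b.

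The central spindle, a bundle of overlapping microtubules between the separating chromosomes, was represented by 6 genes, all called higher in control-siRNA cells with a median rise of 4.27. Kif20a encodes a kinesin that carries Polo-like kinase and passenger proteins to this bundle. Its log2 signals were 3.67, 3.55 and 3.40 on Cav1-siRNA arrays, 3.75, 3.67 and 3.75 on control-siRNA arrays and -2.64, -1.26 and -2.86 on quiescent arrays. The control-siRNA arrays differed from each other by little, whereas quiescent array 2 stood well above the other two, and Kif20a was 62.9-fold higher in control-siRNA than in quiescent cells (log2 change 5.98 ± 0.36, SE; adjusted p = 6.8e-07, limma). Kif23, the kinesin of the centralspindlin complex, had the smallest rise of this set. It read 0.54, 0.53 and 0.55 on Cav1-siRNA arrays, 0.52, 0.69 and 0.83 on control-siRNA arrays and -2.13, -1.72 and -2.74 on quiescent arrays, a 7.35-fold difference between control-siRNA and quiescent cells (2.88 ± 0.24, SE; adjusted p = 5.8e-06). Between these lay Anln, an actin-binding scaffold of the furrow (5.24), Prc1, which bundles antiparallel microtubules (4.45), Ect2, the exchange factor that activates RhoA at the furrow (4.08), and Kif4, a chromokinesin that works with Prc1 (3.26).

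Spindle assembly was covered by 6 genes with a median rise of 3.63, all called higher. Tpx2, which activates Aurora A and nucleates microtubules around chromosomes, had log2 signals of 1.97, 2.03 and 2.04 on Cav1-siRNA arrays, 1.90, 1.97 and 2.08 on control-siRNA arrays and -3.11, -2.22 and -3.80 on quiescent arrays. The cultured arrays covered a range far narrower than that of the quiescent arrays, and the rise in control-siRNA over quiescent cells was 32.6-fold (5.03 ± 0.33, SE; adjusted p = 1.2e-06, limma). Kif22, a chromokinesin that pushes chromosome arms towards the metaphase plate, read 2.13, 2.19 and 2.13 on Cav1-siRNA arrays, 2.34, 2.17 and 2.27 on control-siRNA arrays and -1.06, -0.06 and -1.05 on quiescent arrays. That was the smallest rise in this set, at 7.92-fold (2.98 ± 0.25, SE; adjusted p = 6.7e-06). Kif18b, a kinesin that shortens astral microtubules, was above background on 1 of 3 quiescent arrays, and its fitted rise of 4.66 has the widest interval of the 40 genes (3.23 to 6.08). Kif2c, a microtubule-depolymerising kinesin of the centromere, was not well above background on any quiescent array, so its difference is a bound of at least 8.86-fold, against a fitted value of 10.6-fold. Both rest on the processed signal: with normexp background correction its fitted log2 rise was 1.16, which is below that bound. For the bound, the quiescent level of a gene is taken as the dimmest signal still above background on that array, or as its own signal where brighter. The other two members were Nusap1, which binds and stabilises spindle microtubules (3.84), and Kif11, the motor that pushes spindle poles apart (3.42).

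The 6 kinetochore and centromere genes showed the widest spread of changes, and their median rise was 4.04. Cenpf, a large kinetochore protein made in G2, read 2.75, 2.79 and 2.62 on Cav1-siRNA arrays, 2.97, 2.95 and 2.88 on control-siRNA arrays and -2.40, -1.19 and -2.57 on quiescent arrays, a 31.7-fold difference between control-siRNA and quiescent cells (4.99 ± 0.32, SE; adjusted p = 9.6e-07). Spc25 encodes a subunit of the NDC80 complex, which binds microtubules. It read 4.005, 4.02 and 3.87 on Cav1-siRNA arrays, 4.26, 4.01 and 4.05 on control-siRNA arrays and 1.58, 2.52 and 2.71 on quiescent arrays, which was the smallest rise of all 40 genes at 3.57-fold (1.84 ± 0.27, SE; adjusted p = 0.00025). Spc25 was also the only member whose highest quiescent value was not on array 2. The other 2 measured subunits of the same complex rose by more, Nuf2 by 4.82 and Ndc80 by 3.93, and the difference between subunits was not tested. Cenpe, a kinesin that carries chromosomes to the spindle equator, rose by 4.15, and Cenpa, the histone H3 variant that marks centromeres, by 2.22.

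Of the 4 spindle checkpoint genes, all were called higher, with a median rise of 4.01. Bub1, the kinase that recruits checkpoint proteins to kinetochores, read 0.75, 0.54 and 0.66 on Cav1-siRNA arrays, 0.78, 0.68 and 0.72 on control-siRNA arrays and -3.61, -3.09 and -4.81 on quiescent arrays, a 23.6-fold difference between control-siRNA and quiescent cells (4.56 ± 0.36, SE; adjusted p = 4.4e-06, limma). Mad2l1, the inhibitor of CDC20 that the checkpoint releases, read 2.83, 2.79 and 2.73 on Cav1-siRNA arrays, 2.99, 2.85 and 2.95 on control-siRNA arrays and -0.07, 0.11 and -0.12 on quiescent arrays. Its rise was the smallest of this set, 7.76-fold (2.96 ± 0.13, SE; adjusted p = 8.2e-08), yet its quiescent arrays lay close together and its SE was the lowest of the 40 genes. Ttk, the kinase that starts checkpoint signalling, was above background on 2 of 3 quiescent arrays and rose by 4.48. Bub1b, part of the mitotic checkpoint complex, rose by 3.55.

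Mitotic kinases of the Polo, Aurora and Nek families and the chromosomal passenger complex made up 7 genes with a median rise of 3.68. Aurka, the Aurora kinase of spindle poles, read 3.11, 3.52 and 3.42 on Cav1-siRNA arrays, 3.70, 3.48 and 3.56 on control-siRNA arrays and -0.98, -0.26 and -1.05 on quiescent arrays, a 20.3-fold difference between control-siRNA and quiescent cells (4.34 ± 0.23, SE; adjusted p = 2.6e-07). Plk1, which acts from mitotic entry to cytokinesis, rose by 4.25, and Nek2, which helps separate centrosomes, by 3.27. The 4 subunits of the passenger complex, which corrects faulty attachments, all rose but by different amounts: Birc5 by 3.69, the kinase subunit Aurkb by 3.68, Cdca8 by 2.64 and the scaffold Incenp by 2.22. Incenp read 3.00, 2.99 and 3.15 on Cav1-siRNA arrays, 3.09, 3.24 and 3.26 on control-siRNA arrays and 0.94, 1.40 and 0.60 on quiescent arrays (4.65-fold between control-siRNA and quiescent cells; SE 0.20, adjusted p = 1.1e-05, limma). Whether the subunits differed from each other was not tested, since each is read by its own probe.

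CDK1, its cyclins and the exit machinery gave 7 genes with a median rise of 4.14, all called higher. Cdc25c, a phosphatase that activates CDK1, had the largest rise of this set: 1.26, 1.41 and 1.40 on Cav1-siRNA arrays, 1.62, 1.50 and 1.54 on control-siRNA arrays and -3.70, -3.16 and -4.48 on quiescent arrays (40.4-fold between control-siRNA and quiescent cells; 5.34 ± 0.29, SE; adjusted p = 3.1e-07). Cdk1 itself read 1.32, 1.43 and 1.49 on Cav1-siRNA arrays, 1.30, 1.33 and 1.28 on control-siRNA arrays and -3.30, -2.77 and -3.42 on quiescent arrays. It had the lowest adjusted p of the 40 genes in this comparison (22.2-fold; 4.47 ± 0.18, SE; adjusted p = 5.2e-08). Among the cyclins, Ccnb1 rose by 4.97, Ccna2 by 4.14 and Ccnb2 by 3.85. Ube2c, the ubiquitin-conjugating enzyme of the anaphase-promoting complex, rose by 3.68. The activator of that complex, Cdc20, had the smallest rise of the 7 on the probe that stands for it, which read 1.75, 1.90 and 1.73 on Cav1-siRNA arrays, 1.96, 1.69 and 1.92 on control-siRNA arrays and -1.71, -0.67 and -1.81 on quiescent arrays (9.54-fold between control-siRNA and quiescent cells; 3.25 ± 0.28, SE; adjusted p = 7e-06, limma). Its brighter probe, left out of the test, read 3.22, 3.45 and 3.38 on Cav1-siRNA arrays, 3.67, 3.32 and 3.46 on control-siRNA arrays and -0.59 and -1.08 on quiescent arrays 1 and 3. That gap is wider than the one on the tested probe, so the place of Cdc20 among the 7 depends on the probe.

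The remaining 4 genes are a pair of chromosomal proteins and a pair of transcription factors. Top2a, the topoisomerase that untangles sister chromatids, read 3.10, 3.19 and 3.15 on Cav1-siRNA arrays, 3.34, 3.28 and 3.34 on control-siRNA arrays and -0.30, 0.36 and -1.10 on quiescent arrays (12.7-fold between control-siRNA and quiescent cells; adjusted p = 6.3e-06). Mki67, whose protein coats mitotic chromosomes and is the Ki-67 proliferation antigen, read 2.96, 2.90 and 3.04 on Cav1-siRNA arrays, 2.98, 2.85 and 3.00 on control-siRNA arrays and 0.23, 0.86 and -0.32 on quiescent arrays (6.45-fold; adjusted p = 1.6e-05). In both cases the 6 cultured arrays lay close together and above every quiescent array. Foxm1, which drives transcription of G2 and M phase genes, read 1.45, 1.36 and 1.57 on Cav1-siRNA arrays, 1.23, 1.59 and 1.54 on control-siRNA arrays and -3.11, -2.26 and -4.16 on quiescent arrays (24.7-fold between control-siRNA and quiescent cells; adjusted p = 7.3e-06). Mybl2, which encodes the B-Myb protein that joins the MuvB complex at the promoters of such genes, read 1.09, 1.26 and 1.19 on Cav1-siRNA arrays, 1.54, 1.31 and 1.36 on control-siRNA arrays and -1.002, -0.46 and -1.45 on quiescent arrays (5.18-fold; adjusted p = 1.7e-05). For Mybl2 the 3 Cav1-siRNA arrays also lay below the 3 control-siRNA arrays.

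The quiescent arrays differed among themselves far more than the cultured arrays did. The median SD of a member was 0.082 over the Cav1-siRNA arrays, 0.089 over the control-siRNA arrays and 0.58 over the quiescent arrays, whereas the median over all genes was 0.12, 0.16 and 0.35. Array 2 was the highest of the 3 quiescent arrays for 39 of 40 members and for 33.1% of all genes. Array 3 was the lowest for 33 members and for 27.6% of all genes. Array 2 was also the highest for 35 to 38 members under the other scalings tried, beside 17.5% to 31.5% of all genes. With scaling to the median, array 2 was the lowest for 2 members and for 64.3% of all genes. Its percentage of probes above background was 51.5%, against 58.4% and 58.1% on quiescent arrays 1 and 3. Marker levels differed among these arrays too, and their part in the pattern was not tested. On quiescent arrays 1, 2 and 3, the summed level was 334.5, 569.5 and 363.8 for endothelial markers, 4.96, 8.95 and 3.42 for stellate markers, 2.84, 6.03 and 2.06 for cholangiocyte markers, 481.3, 301.1 and 357.7 for macrophage markers, 1814, 1543 and 1806 for hepatocyte markers, and 58.9, 45.1 and 25.9 for lymphocyte and neutrophil markers. In the same order, mesothelial and portal fibroblast markers summed to 60.8, 35.0 and 58.8, and erythroid markers to 347.5, 270.5 and 226.3. Without quiescent array 2 the median rise of the members in control-siRNA over quiescent cells was 4.15, and without quiescent array 3 it was 3.50, with all 40 called higher either way. Within slide 1, control-siRNA array 1 alone against the 3 quiescent arrays gave a median of 3.87 and the same 40 calls (largest adjusted p 0.033, the lone array being assumed to vary like the others).

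**Figure D2:**
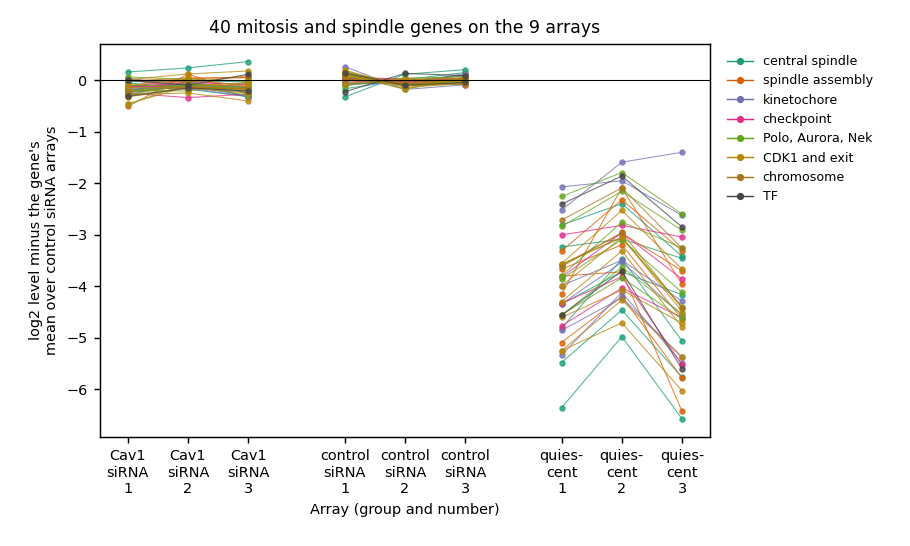
Log2 level of each of the 40 genes minus that gene's mean over the control-siRNA arrays, on the vertical axis, for each of the 9 arrays; points of 1 gene within a group are joined and coloured by role. The cultured arrays cluster around 0, and the quiescent arrays lie below them, with array 2 highest for 39 of 40 genes.

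Several genes had more than 1 kept probe, and these did not all show the same change. All 59 probes designed to a curated RefSeq mRNA were called higher in control-siRNA than in quiescent cells, against 43% of all kept probes, with a median fitted change of 3.69. Of the 12 probes designed to other transcripts (predicted RefSeq, Ensembl or cDNA clone sequences), 8 were called higher and the median fitted change was 2.25. These medians are not exact, because 7 of the 59 and 7 of the 12 probes were above background on no quiescent array, and a probe without a measured quiescent level has no exact rise. The 4 that missed the threshold belong to Prc1, Nuf2 and Kif23. Prc1 shows the contrast most clearly, because it has probes of both kinds: probes for its curated mRNA rose by 4.45 and 4.62 and that for a predicted mRNA, not above background in quiescent cells, was at least 10.975-fold higher, while those for a pair of Ensembl transcripts gave 0.66 (adjusted p = 0.087) and 0.38 (adjusted p = 0.14). The pair below is shown because the first followed the gene and the second did not. Both passed the background filter, and what the second did not pass is the adjusted p threshold. The first lies on mm9 chr7:87458431-87460035, plus strand, a span of 1605 bases for 60 bases of probe, so it crosses an exon junction. The second lies on mm9 chr7:87449197-87449256, plus strand, as 1 block upstream of the first, and the exon or intron it falls in was not analysed here.
Prc1 probe that rose: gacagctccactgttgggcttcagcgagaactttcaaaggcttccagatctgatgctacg
Prc1 probe that did not pass: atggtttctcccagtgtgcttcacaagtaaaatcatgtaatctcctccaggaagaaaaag
The probe that rose read -1.75, -1.73 and -1.63 on Cav1-siRNA arrays, -1.51, -1.67 and -1.35 on control-siRNA arrays and -6.27, -6.23 and -7.11 on quiescent arrays, and was above background on no quiescent array. The other read -5.00, -5.51 and -5.01 on Cav1-siRNA arrays, -5.66, -5.02 and -5.48 on control-siRNA arrays and -5.70, -5.66 and -5.95 on quiescent arrays, and was above background on 2 control-siRNA arrays and again on no quiescent array.

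**Figure D3:**
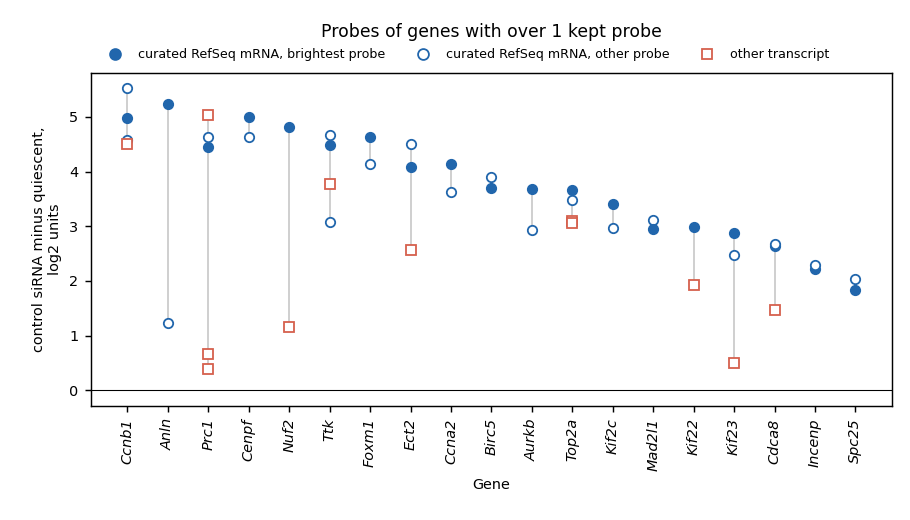
Change in control-siRNA minus quiescent cells, in log2 units on the vertical axis, for every kept probe of the 19 genes with more than 1; filled circles are the probes that stand for a gene, open circles other probes of curated RefSeq mRNAs, and open squares probes of other transcripts. The square of Nuf2, that of Kif23 and 2 of the 3 of Prc1 lie at 1.16 or below, while the circles of these genes lie at 2.48 or above; values of probes not above background in quiescent cells, such as the top square of Prc1, are fitted and not exact.

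Probes of 3 further members show what the arrays read for the kinase that drives mitosis, its cyclin and the kinetochore. The Cdk1 probe spans 2410 bases of the minus strand at mm9 chr10:68805423-68807832, and the Ndc80 probe 963 bases of the minus strand at mm9 chr17:71860793-71861755, so both cross an exon junction. The Ccnb1 probe shown, which gave a rise of 4.58, lies in 1 block on the minus strand at mm9 chr13:101551224-101551283.
Cdk1 probe: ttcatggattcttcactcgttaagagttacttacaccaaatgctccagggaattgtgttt
Ndc80 probe: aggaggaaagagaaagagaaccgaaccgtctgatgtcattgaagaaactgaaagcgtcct
Ccnb1 probe: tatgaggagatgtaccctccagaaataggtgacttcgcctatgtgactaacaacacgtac
All 4 kept Ccnb1 probes were called higher in control-siRNA than in quiescent cells: besides the rises of 4.97 and 4.58, the 2 that were above background on no quiescent array were at least 6.55-fold and at least 11.5-fold higher. RefSeq lists pseudogenes named after Kif22, Ccnb1, Ccnb2 and Kif4, and whether probes of these 4 genes also match them was not analysed here.

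Promoters were examined because the 40 genes moved together. In dividing cells many G2 and M phase genes carry a CCAAT box, bound by the activator NF-Y, upstream of a cell cycle genes homology region (CHR), bound by the MuvB complex: with B-Myb and FOXM1 it activates, and as DREAM, with p130 and E2F4, it represses in resting cells. RefSeq promoters on GRCm38.p6, from 250 bases before to 50 bases after the transcript start, were found for 33 of the 40 genes as 35 sequences, with 2 each for Ect2 and Prc1. Ccna2, Tpx2, Aurkb, Kif20a, Foxm1, Incenp and Cdc25c had no entry. The CCAAT motif was searched on both strands, as was the CHR, in its TTTGAA form and in its TTCGAA form, which reads the same on both. A CCAAT was present in the promoters of 25 of 33 genes, beside 37.4% of all 32851 promoters. One of the 2 CHR forms was present in 25 of 33, beside 19.2% of all promoters, and both a CCAAT and a CHR in 22 of 33, beside 7.52%. In 14 of 33 genes a CCAAT began 20 to 40 bases before a CHR, beside 0.968% of all promoters; this window was chosen after the positions were seen. In 1 member promoter, that of Cdca8, a CCAAT and a CHR overlapped. The promoters of Birc5, Mad2l1, Mybl2, Nuf2 and Nusap1 held none of the motifs in these windows, beside 50.9% of all promoters.

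The last 100 bases before the transcript start are given for 5 promoters with the paired arrangement, and for Nuf2, which rose by 4.82 with none of the motifs in its window. Capitals mark CCAAT (or ATTGG, its reverse complement) and TTTGAA (or TTCAAA). On GRCm38.p6 they are Cdk1 at chr10:69352913-69353012 (minus strand), Cdc20 at chr4:118437344-118437443 (minus), Ube2c at chr2:164769829-164769928 (plus), Kif11 at chr19:37376282-37376381 (plus), Kif22 at chr7:127042421-127042520 (minus) and Nuf2 at chr1:169531465-169531564 (minus).
Cdk1 promoter: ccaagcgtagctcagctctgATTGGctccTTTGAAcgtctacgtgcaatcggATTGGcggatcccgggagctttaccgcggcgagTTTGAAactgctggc
Cdc20 promoter: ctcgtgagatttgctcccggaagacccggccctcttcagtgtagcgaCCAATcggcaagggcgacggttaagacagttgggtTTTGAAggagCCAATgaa
Ube2c promoter: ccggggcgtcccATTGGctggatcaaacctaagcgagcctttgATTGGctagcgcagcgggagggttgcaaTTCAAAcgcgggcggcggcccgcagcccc
Kif11 promoter: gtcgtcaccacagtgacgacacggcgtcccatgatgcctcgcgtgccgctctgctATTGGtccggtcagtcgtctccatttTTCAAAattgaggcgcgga
Kif22 promoter: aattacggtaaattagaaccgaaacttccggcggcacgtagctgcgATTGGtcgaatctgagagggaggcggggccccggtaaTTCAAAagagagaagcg
Nuf2 promoter: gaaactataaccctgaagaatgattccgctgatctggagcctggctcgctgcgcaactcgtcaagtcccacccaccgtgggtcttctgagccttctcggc
A match is a description of the letters and no measurement of binding. The rises of these genes in control-siRNA over quiescent cells were 4.47 for Cdk1, 3.25 for Cdc20, 3.68 for Ube2c, 3.42 for Kif11 and 2.98 for Kif22. Since all 40 members rose, these 6 promoters offer no contrast with genes that did not rise.

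**Figure D4:**
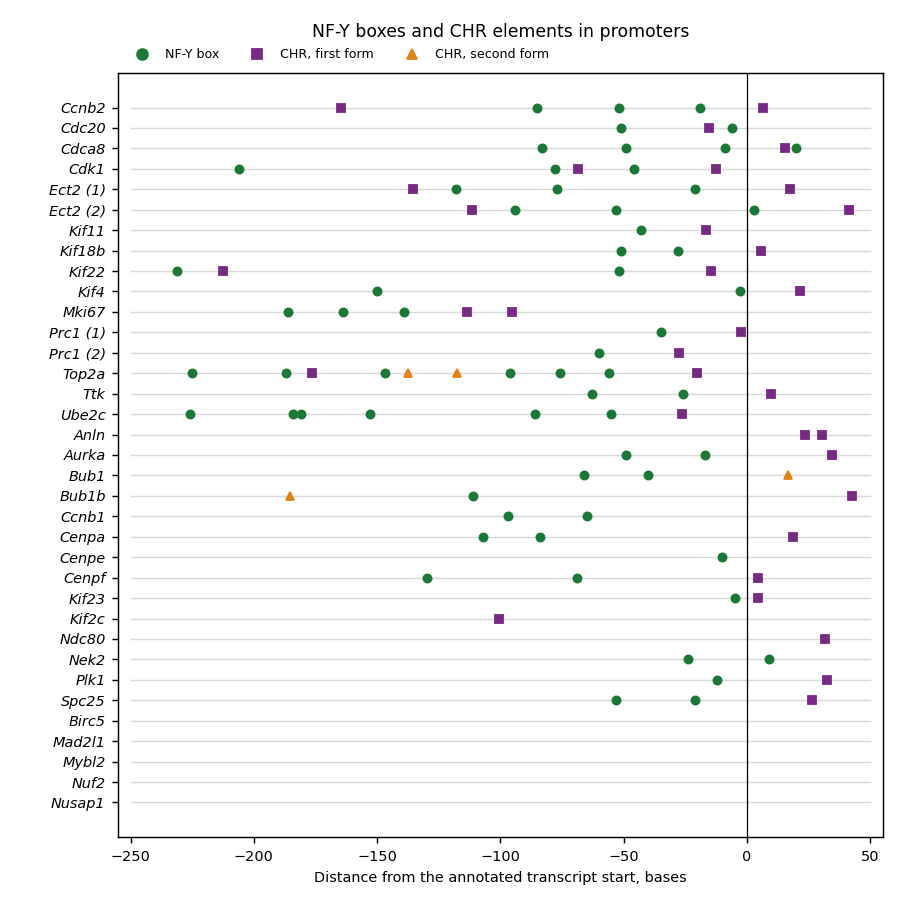
Positions of the motifs in the 35 RefSeq promoters of 33 genes, as distance in bases from the transcript start on the horizontal axis, 1 promoter a row; circles are NF-Y boxes (CCAAT), squares the TTTGAA form and triangles the TTCGAA form of the CHR, on either strand. The top rows hold the 14 genes with a CCAAT beginning 20 to 40 bases before a CHR, and the lowest 5 rows hold no motif.

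The knockdown comparison asked what Cav1 siRNA did to these genes relative to control siRNA, and none of the 40 passed the test. No gene was called in this comparison at an adjusted p under 0.05 (0% of the 23965), and at an unadjusted p under 0.05 there were 0 members and 4.96% of all genes (limma over 9 arrays). The means of 34 of the 40 members were lower in Cav1-siRNA cells, as were those of 56.8% of all genes, with a median difference of -0.15 beside -0.04 over all genes. The differences ran from -0.31 for Ccnb1 to 0.26 for Kif4. The Cav1-siRNA arrays were all below the control-siRNA arrays for 15 members and for 14% of all genes, and the opposite held for 0 members and 8.61% of all genes. The 15 were Ccnb1, Bub1b, Ccna2, Ccnb2, Mybl2, Cenpa, Cenpf, Cdc25c, Top2a, Nuf2, Kif11, Mad2l1, Prc1, Ndc80 and Ttk.

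Marker levels also differed between these groups, and their part in the small differences was not tested. Summed levels were 1.68 to 2.09 on Cav1-siRNA arrays and 3.08 to 3.46 on control-siRNA arrays for endothelial markers, 29.6 to 31.5 and 32.7 to 35.8 for macrophage markers, 13.8 to 14.8 and 15.2 to 19.6 for hepatocyte markers, and 430.4 to 456.8 and 392.2 to 402.2 for stellate markers, in each case without overlap. The sums overlapped for the mesothelial and portal fibroblast, cholangiocyte, lymphocyte and neutrophil, and erythroid lists. Means were lower for 6 of 10 endothelial, 7 of 10 macrophage, 9 of 12 hepatocyte and 2 of 7 stellate markers. Egfl7 had the brightest endothelial probe here, with mean log2 signals of 0.41 with Cav1 siRNA and 1.46 with control siRNA. The next, Oit3, read -2.38 in both groups, and Kdr was higher with Cav1 siRNA without overlap (-2.46 and -2.68). Ass1 had the brightest hepatocyte probe (3.82 and 4.14). The next were Tat with Cav1 siRNA (-4.40) and Serpina1a with control siRNA (-4.63). The endothelial and hepatocyte sums therefore mostly follow 1 probe each. Of the 10 mesothelial and portal fibroblast markers, 9 had lower means in Cav1-siRNA cells (median -0.45), and no marker of any list was called.

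The small differences of the 40 genes depended on the scaling of the arrays. With each array scaled to its median in place of its 75th percentile, the median over all genes moved to 0.08 and that of the members to -0.04, 25 of 40 members were lower beside 36.5% of all genes, and no member stood lower on all 3 arrays. Under that scaling the 3 Cav1-siRNA arrays lay above the 3 control-siRNA arrays for 5 members (Kif4, Ect2, Tpx2, Cdk1 and Mki67) and for 16.6% of all genes. Relative to the median of all genes the members' median was -0.11. This value is bound to be the same under both scalings, since each subtracts 1 constant from all genes of an array. With quantile normalization 15 members were lower and 1 higher without overlap, beside 11.6% and 9.59% of all genes. With normexp background correction 17 were lower and 0 higher at the 75th percentile, beside 7.9% and 7.66%, and 12 and 0 after quantile normalization, beside 10.8% and 9.89%.

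The fit over all 9 arrays shares 1 estimate of the spread, within which the quiescent arrays spread most, and its median SE for the members was 0.26. In a fit of only the 6 transfected arrays the median SE was 0.089, and 3 members had an unadjusted p under 0.05, all lower, where 10% of all genes were lower and 3.49% higher at that threshold. Bub1b was 0.49, 0.40 and 0.47 on Cav1-siRNA arrays and 0.79, 0.76 and 0.65 on control-siRNA arrays (difference -0.29, 95% interval -0.47 to -0.10, adjusted p = 0.22, limma). Ccnb1 was 2.58, 2.62 and 2.46 on Cav1-siRNA arrays and 3.03, 2.77 and 2.79 on control-siRNA arrays (-0.31, interval -0.56 to -0.06, adjusted p = 0.28). Cenpf, with its values given above, differed by -0.21 (interval -0.41 to -0.02, adjusted p = 0.34). In all 3 genes the groups did not overlap, and none passed after adjustment. The 95% intervals of the 40 genes, each taken alone, lay between -0.64 and 0.64 in this fit, so that a halving lay outside every one of them. Among all genes this fit called 5. In the fit over 9 arrays, the intervals of Kif18b (-1.64 to 1.20), Kif2c (-1.10 to 1.00) and Kif20a (-1.0007 to 0.64) did include a halving.

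By role, the median knockdown differences ran from -0.08 to -0.20, and differences between roles were not tested. Over all genes 56.8% of means were lower, with a median of -0.04, and these signs depend on the scaling, as above. The CDK1 and cyclin genes had a median of -0.20, with 6 of 7 lower in Cav1-siRNA cells, and Cdk1 itself at 0.11 (95% interval -0.30 to 0.51 in the fit over 9 arrays). The kinetochore genes had a median of -0.16 with 6 of 6 lower, the Polo, Aurora and Nek group -0.15 with 6 of 7, the central spindle genes -0.13 with 5 of 6, the checkpoint genes -0.12 with 4 of 4 and the spindle assembly genes -0.09 with 5 of 6. The pair of transcription factors had a median of -0.11 and the pair of chromosomal proteins -0.08, with 1 of 2 lower in each. Kif4 went the other way, reading -0.27, -0.19 and -0.07 on Cav1-siRNA arrays and -0.75, -0.31 and -0.23 on control-siRNA arrays, with overlap between the groups. Within slide 2, without control-siRNA array 1, its difference was 0.09. There 35 of 40 members were lower in Cav1-siRNA cells, beside 54.2% of all genes, with a median of -0.13 beside -0.02.

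**Figure D5:**
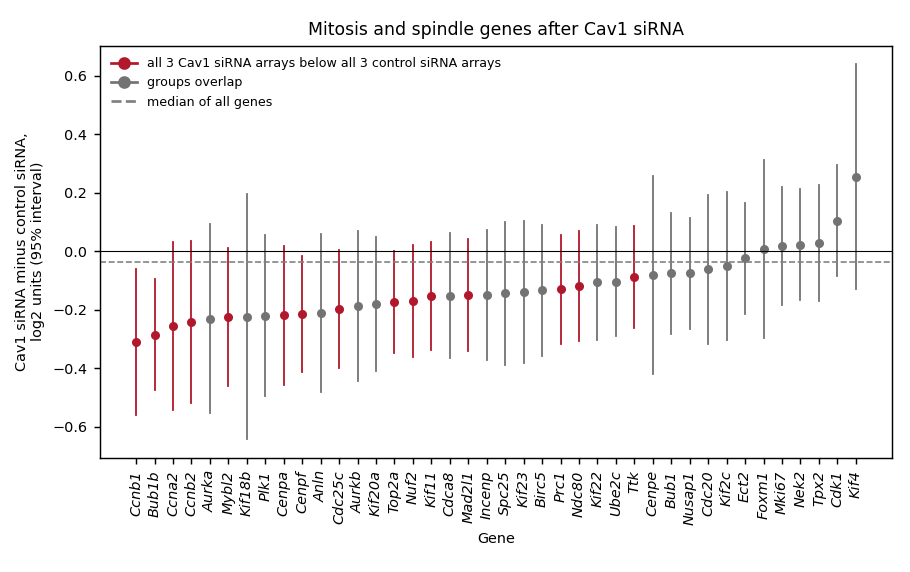
Cav1 siRNA minus control siRNA for the 40 genes in log2 units on the vertical axis, ordered by size, with 95% intervals from the limma fit of the 6 transfected arrays; red marks genes with every Cav1-siRNA array under every control-siRNA array, with scaling to the 75th percentile. The differences run from -0.31 for Ccnb1 to 0.26 for Kif4, the dashed line marks the median of all genes at -0.04, and with scaling to the median no gene stays red.

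Cav1-siRNA cells against quiescent cells gave values like those of control-siRNA cells, with which they share the quiescent arrays. All 40 genes were called higher, as were 40.4% of all genes, with a median rise of 3.68 and a range from 1.69 for Spc25 to 5.79 for Kif20a. Kif20a rose by 5.79 in Cav1-siRNA and 5.98 in control-siRNA cells, Tpx2 by 5.05 and 5.03, Cdk1 by 4.57 and 4.47, and Mybl2 by 2.15 and 2.37. No slide held both Cav1-siRNA and quiescent arrays, so slide and group can be separated only through the control-siRNA arrays, and with slide as a block the median was 3.79. Tested probe by probe, 67 of the 71 kept probes were called higher, as were 41.8% of all kept probes.

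The rest of the mitotic machinery was read from lists of other genes of the same processes, for control-siRNA over quiescent cells. Over all genes, 42.1% were called higher and 26% lower, with a median of 0.32. List medians were 1.88 for spindle poles and centrosomes, 1.81 for other kinesins and 1.28 for cytokinesis, against 3.84 for the members. Of 30 other kinetochore genes, 25 were called higher and 0 lower, with a median of 2.95. Largest among them were the Ska complex genes Ska1 (4.82) and Ska3 (4.79), whose proteins hold kinetochores on microtubules, and the inner kinetochore gene Cenpi (4.60). At spindle poles and centrosomes 17 of 21 were higher and 0 lower, led by Ckap2 (5.29), Ckap2l (4.61) and Aspm (4.59), which bind or focus spindle microtubules. Of 11 other kinesins, 9 were higher, with the minus-end motor Kifc1 at least 11.1-fold, Kif14 by 4.64 and Kif20b by 4.06, and 1 was lower, the axonal transport motor Kif1b (-1.05). Of 13 cytokinesis genes, 10 were higher and 0 lower, among them Shcbp1 (3.90), the centralspindlin partner Racgap1 (2.86) and the abscission gene Cep55 (at least 5.74-fold).

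Genes of chromosome structure and of the control of mitosis were also mostly higher. Their median changes were 1.33 for condensin, cohesin and separase, 0.98 for the anaphase-promoting complex and 1.32 for mitotic entry. In the condensin, cohesin and separase list 16 of 22 were higher, led by the shugoshins Sgo1 (4.82) and Sgo2a (4.22) and the condensin subunit Ncapg (4.22), and 2 were lower. One of these was Wapl, the cohesin release factor (-0.89). The other was Pttg1, the gene of securin, which holds separase inactive until anaphase: its mean log2 signal was 3.22 ± 0.12 in control-siRNA cells and 5.12 ± 0.20 in quiescent cells (SD, n = 3 each; log2 change -1.90, adjusted p = 4.1e-06, limma), and its second probe fell by 1.63. Pttg1 and the other genes that fell are named because they are few, and were chosen after their values were seen. Of 17 genes of the anaphase-promoting complex and its regulators, 14 were higher, with the inhibitor Fbxo5 (3.76) and the subunits Cdc23 (2.15) and Anapc4 (2.04) foremost, and Anapc15 was lower (-0.59). Of 14 regulators of mitotic entry, 12 were higher, with the Greatwall kinase gene Mastl at least 23.2-fold, the Aurora A activator gene Bora at least 14.8-fold and Cdkn3 by 4.13, and Wee1, whose kinase inhibits CDK1, was lower (-0.88, adjusted p = 0.048) with overlapping arrays.

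Upstream of mitosis, the list of MuvB, DREAM and E2F genes was split, with 8 of 17 higher and 4 lower, beside 42.1% and 26% of all genes. Its median change was 0.14. Mybl1 (3.59), E2f1 (2.79) and E2f7 (2.47) were the largest rises, and E2f2 (-1.22), Rbbp4 (-0.90), Rb1 (-0.79) and Rbl2, the gene of p130 (-0.51), were lower in control-siRNA than in quiescent cells. All 7 tested genes for G1 cyclins and their kinases were higher, with a median of 1.50, including Ccnd2 (2.58), Ccne1 (2.13) and Cdk4 (1.97). None of the genes in these 9 lists was called between Cav1-siRNA and control-siRNA cells.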

How the data were processed

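The samples, groups and probes are described above. Agilent Feature Extraction 10.7.1.1 read the scans, per the submitters' processing notes. Its deposited processed signal is a linear spot intensity from which a background was subtracted and a multiplicative trend removed, and which is not scaled across arrays, per the file headers. The mean and background intensity and the spot flags of the same deposited files, and the processed intensity deposited for the whole series, served for alternatives. The file headers place probes on mm9. No other step of the authors is given in the sources used here.

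From these, log2 signals were computed, the 75th percentile of each array was subtracted and outlier spots were left out. To be kept, a probe needed a share of 0.5 or more of its spots well above background on each array of 1 or more groups (36817 probes), and the probe with the highest mean stood for its gene (23965 genes). Groups were compared with limma 3.58.1 under R 4.3.3 (two-sided, with the 9 arrays in 1 lmFit and eBayes model), with Benjamini-Hochberg adjustment over all genes and calls under 0.05. The data.table package 1.17.8 read the files, and motifs and figures were made in Python 3.11.15 with matplotlib 3.10.9. On simulated data for 23965 genes in the comparison of control-siRNA with quiescent cells, 33% of changes of 1 and 99% of changes of 4 (log2) were recovered, with 7 false calls. The simulation changed only a small share of the genes and gave all groups the same spread. In the data 16328 genes were called and the quiescent arrays spread more, so these rates need not hold there. No spot was saturated, and the number of arrays limits the precision.

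The members and the gene lists were chosen with earlier results of these data known. Any member may be named, and array values are given for Kif20a, Tpx2 and, in each role, the members with the largest and smallest rise. Those of Cdk1, Bub1b, Ccnb1, Kif4 and the Prc1 probes were added after the values were seen. Of each other list up to 3 genes with the largest change are named. Alternatives covered background correction, scaling, the deposited values of the whole series, the filter, the choice of probe, gene names, slide, replicate number, the arrays in the fit, array weights and each array left out.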

Additional observations from a re-analysis of the deposited data

How the results depend on the processing

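All 40 members were called higher than in quiescent cells, in both comparisons, under every alternative that measured them; 37 were measured when a probe had to be above background on all 9 arrays. With normexp background correction the median rise over quiescent cells was 3.01 in Cav1-siRNA and 3.04 in control-siRNA cells with the 75th percentile, and 3.18 and 3.26 with quantile normalization. With every kept probe tested, 67 of 71 member probes were called higher in each. Between Cav1-siRNA and control-siRNA cells no member was called under any alternative, and the median of -0.15 became -0.0356 with scaling to the median. Array quality weights called 656 genes in all, and 6 members were then lower at an unadjusted p under 0.05, beside 13.7% of all genes. Leaving out 1 array at a time, the median rise in control-siRNA cells was 3.50 to 4.15, that in Cav1-siRNA cells 3.39 to 4.02, and the difference between these groups -0.18 to -0.13.

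The groups share replicate numbers. Deviations of same-numbered arrays of different groups correlated across genes at -0.11 to 0.17, and those of differently numbered arrays at -0.27 to 0.28. The numbers are therefore not taken as pairs, although 3 arrays a group cannot exclude pairing. With replicate number as a block, 40 members were called higher in each comparison with quiescent cells, and 0 were called between Cav1 siRNA and control siRNA. The medians of 3.68 for Cav1 siRNA and 3.84 for control siRNA cannot change with this block, since every number occurs once in each group. Signal over background limits the quiescent levels of Kif2c, Kif18b and Ttk. The treatment of background also moved other members: with normexp and the 75th percentile the rise in control-siRNA cells was 1.65 for Nek2, 2.26 for Ndc80, 2.03 for Kif11 and 1.92 for Kif4.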

Other observations

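The paired promoter arrangement was also looked up in genes outside the 40. Of 133 tested genes with a CCAAT beginning 20 to 40 bases before a CHR, 54.9% were called higher and 21.8% lower in control-siRNA than in quiescent cells, with a median change of 0.75. Of the 956 with a CCAAT and a CHR at any spacing, 43.7% were higher and 27.8% lower, with a median of 0.32. Over the 13651 tested genes with a RefSeq promoter, members left out, 40.9% were higher and 29.7% lower, with a median of 0.23. The window was chosen after the positions in the members were seen, and no test was made.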
